A study of Mus musculus with 2 samples.

Results

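This account covers the enriched regions of YFP-tagged H2A.Z at 5 core pluripotency loci of mouse embryonic stem cells, Pou5f1, Sox2, Nanog, Klf4 and Esrrb. The members were chosen by position: every deposited region that overlapped a window around one of these genes and its known nearby enhancers, in build mm9. The windows were chromosome 17 from 35.63 to 35.66 Mb for Pou5f1, chromosome 3 from 34.54 to 34.67 Mb for Sox2, chromosome 6 from 122.60 to 122.67 Mb for Nanog, chromosome 4 from 55.47 to 55.55 Mb for Klf4 and chromosome 12 from 87.68 to 87.87 Mb for Esrrb. They held 60 of 99812 wild-type and 67 of 114028 K3R3 regions in the looser lists (track-line threshold 1e-09), and 62 of 97146 and 64 of 110435 in the stricter lists (1e-12). Chromatin immunoprecipitation followed by sequencing gave 1 library for each histone. The wild-type group carried H2A.Z-YFP, and the K3R3 group carried the same fusion with 3 C-terminal lysines changed to arginine, so that the usual sites of mono-ubiquitylation are lost. Both groups shared everything else the labels give: V6.5 (129SvJae x C57BL/6) as strain and KH2 as the infected line, lentiviral transgenes under a CMV promoter switched on through rtTA with 1 µg/ml doxycycline, sorting for YFP-positive cells, and a hairpin against the endogenous H2A.Z transcript. The Abcam antibody Ab290, raised against GFP, pulled down the tagged protein, so untagged H2A.Z was not read. The growth protocol gives feeder-free plating for the final passage. With 1 library per group, every difference below is between 2 libraries and none was tested against replicates. Region lists give no expression, so the cell type could not be checked against markers, and read depth is unknown.

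Pou5f1 (also known as Oct4), Sox2 and Nanog encode the transcription factors at the centre of the embryonic stem cell network, and they bind one another's enhancers as well as their own. Klf4, a zinc finger factor, and Esrrb, an orphan nuclear receptor, belong to the same circuit and help to hold cells in the naive state. H2A.Z replaces canonical H2A in nucleosomes at promoters and enhancers, where remodelling complexes insert it, and its mono-ubiquitylated form is known from silenced and poised chromatin. The question for these loci is whether the mutant that cannot carry this mark sits where the wild type does.

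A well known sequence feature of this network is the composite element bound jointly by Sox2 and Oct4, shown here because the Nanog promoter carries it. In RefSeq promoter windows (build GRCm38.p6, 250 bases before to 50 after each start), all 5 genes matched by symbol, with 2 start sites each for Pou5f1, Nanog and Esrrb. The element was searched on both strands as the Sox motif CATTGT, then 1 base of any kind, then the Oct motif ATGCAAA. Other forms of the element were not searched, so the count does not say how many promoters carry one. This form was present in 2 of 32851 windows (0.00609%), and both were the overlapping windows of the 2 Nanog starts, which hold the same match. The element is shown because Nanog carries it, so a match there was fixed in advance. The count is therefore no sign that Nanog stands apart. The match ends 61 and 137 bases before those starts. The stretch lies at chr6:122707406-122707435 in GRCm38.p6 and is printed 5′ to 3′ from the minus strand, with the element in capitals:
Nanog promoter: accatggaCATTGTAATGCAAAagaagctg
The Oct motif also occurred in the Sox2 window (4.63% of all windows hold it), and the Sox motif in 1 window each of Pou5f1 and Esrrb (12.6% of all). In CpG dinucleotides the promoters differed widely, with 40 in Klf4, 27 in Sox2, 11 and 6 in the 2 Pou5f1 windows, 7 in each Esrrb window and 4 in each Nanog window, beside a median of 7 over all promoters. The enriched regions are in mm9 and these promoters in another build, so no region was placed on a promoter, exon, intron or enhancer, and no match is tied to a region.

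All 5 windows held regions of both histones, but the amount covered ranged from 925 bp of wild type at Pou5f1 to 11750 bp of K3R3 at Esrrb. The length covered by wild-type and K3R3 regions of the looser lists was 925 and 975 bp at Pou5f1, 6525 and 7650 bp at Sox2, 6775 and 2500 bp at Nanog, 8550 and 7425 bp at Klf4, and 8875 and 11750 bp at Esrrb. Nanog was the locus with the widest gap between the histones, and there the wild type had the more. In the plot of covered length the stricter lists keep the same order of histones at every locus except Pou5f1, where 925 and 825 bp turn it.

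**Figure D1:**
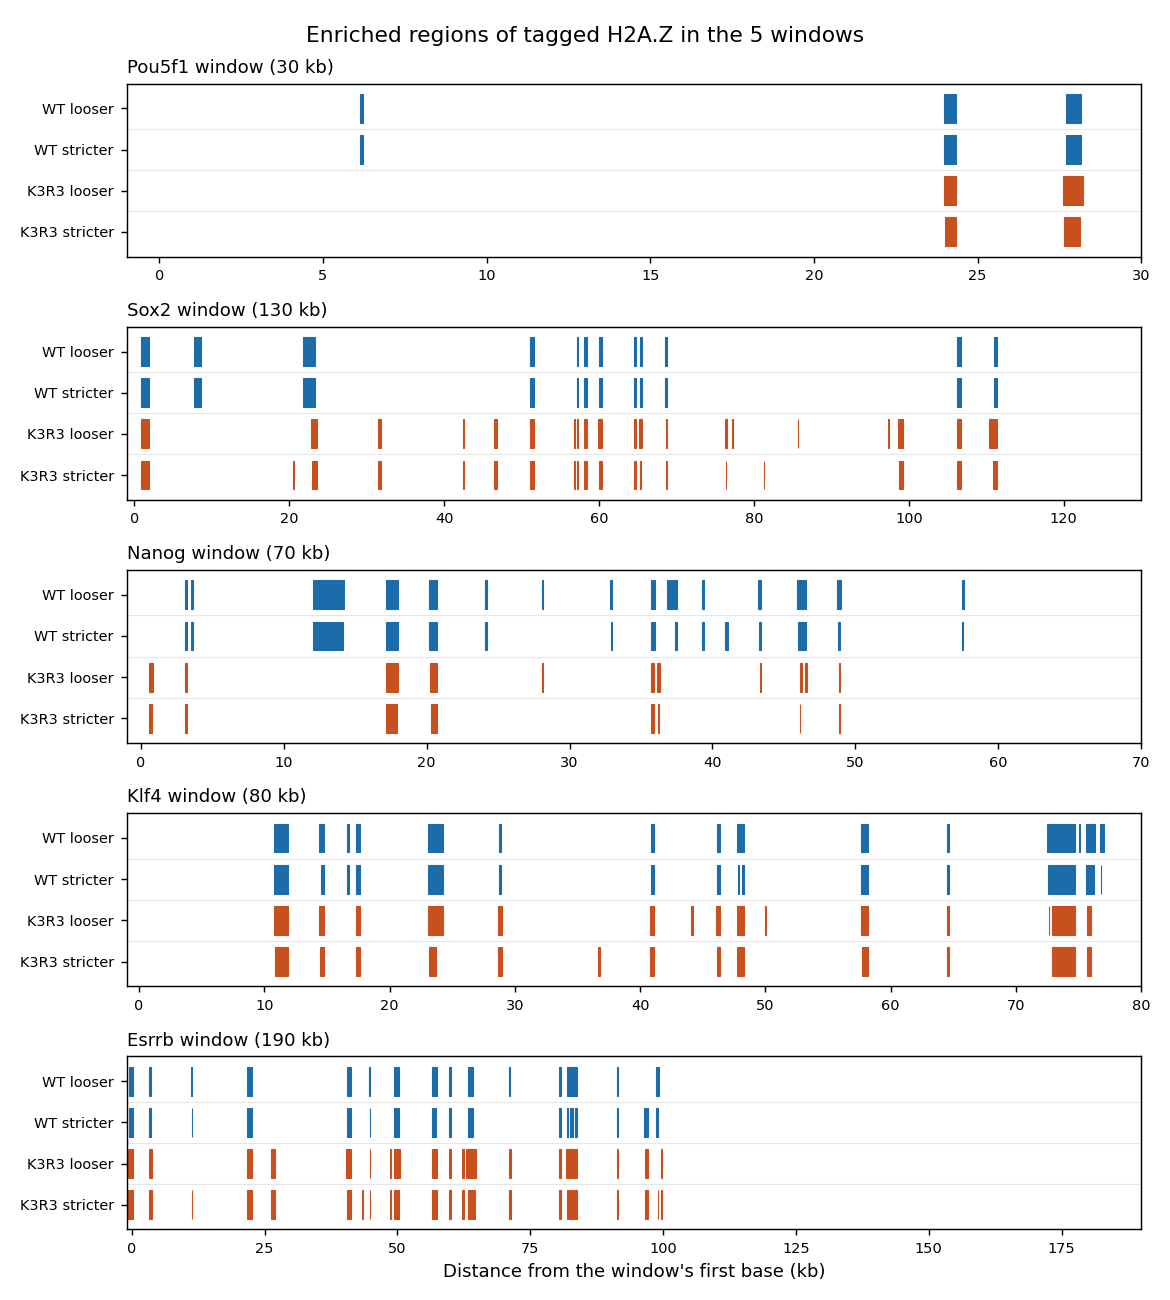
Enriched regions in the 5 windows. The horizontal axis is the distance in kb from the first base of each window, each row is 1 of the 4 lists (wild type in blue, K3R3 in orange), and each block is 1 region drawn to scale with a thin outline. Most blocks line up between the histones, the 2175 bp wild-type block at Nanog has no K3R3 block under it, and the last 90.125 kb of the Esrrb window are empty in all 4 lists.

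**Figure D2:**
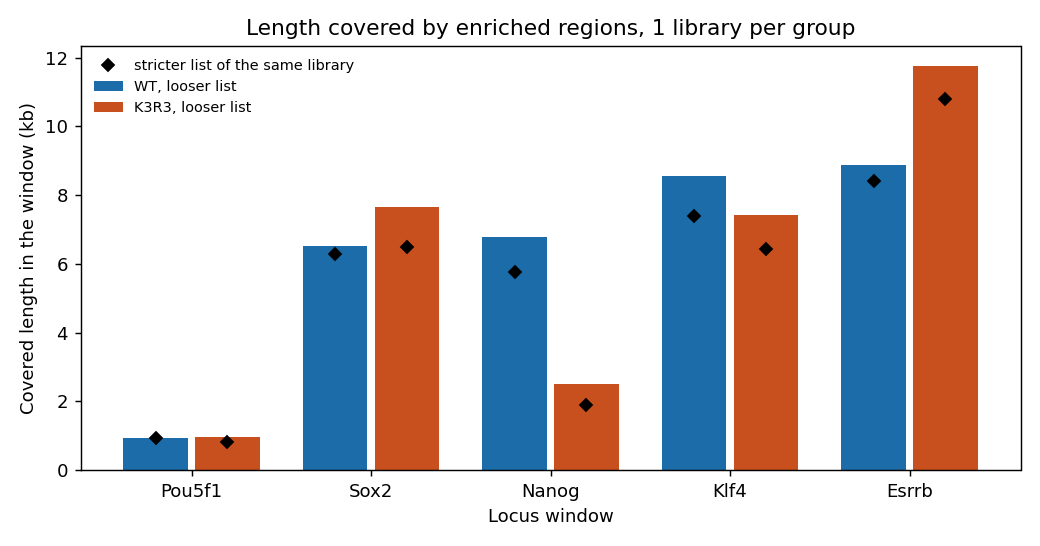
Length in kb covered by enriched regions in each locus window. Bars are the looser lists (wild type in blue, K3R3 in orange), diamonds the stricter list of the same library, and each value comes from 1 library. At Nanog the wild-type bar (6775 bp) stands far above that of K3R3 (2500 bp), and at Esrrb K3R3 covers more (11750 against 8875 bp).

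The Pou5f1 window, around the gene for the Oct4 protein, was the sparsest by length covered. The wild-type list held 3 regions of 100, 375 and 450 bp, and the K3R3 list held 2, of 375 and 600 bp. The region at chr17:35653976-35654350 had the same start and end in both libraries. At the other shared place, K3R3 spanned chr17:35657626-35658225 and the wild type a 450 bp stretch inside it. The small wild-type region at chr17:35636126-35636225 was in both wild-type lists and had no K3R3 region within 8550 bp. Between it and the first shared region lay 17.75 kb without any region in any of the 4 lists. In RefSeq order Pou5f1 is followed directly by Tcf19, so regions of this window may belong to the neighbour, which was not tested. With no mm9 annotation at hand, the gene was not placed against the empty 17.75 kb. No region of this window is therefore shown to lie on Pou5f1 itself.

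The Sox2 window, around the gene for the HMG-box partner of Oct4, held 20 K3R3 and 12 wild-type regions in the looser lists, and 19 and 12 in the stricter ones. Counting only regions of at least 200 bp there were 12 and 11, and the covered lengths were 7650 and 6525 bp. The pair at chr3:34540901-34541900 was identical in start and end, at 1000 bp. At a second place the histones covered different parts: the wild type spanned 1500 bp (chr3:34561776-34563275) and K3R3 750 bp that began within it and reached 34563625, and K3R3 covered 26.7% of the wild-type region. At the far end the order was the other way, with a K3R3 region of 1025 bp (chr3:34650351-34651375) over a wild-type region of 425 bp. In the stricter list this K3R3 region shrank to 475 bp.

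One wild-type region of the Sox2 window had no K3R3 counterpart. It spanned chr3:34547676-34548600, 925 bp wide in both wild-type lists, and the nearest K3R3 region of either list was 5775 bp away. Among all wild-type regions of 800 to under 1000 bp in the genome, 348 of 6218 (5.60%) lacked any K3R3 region over them, whichever list was used.

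In the other direction, 11 of the 23 Sox2 sites held K3R3 alone. That is 47.8% (95% Wilson interval 29.2 to 67.0), beside 29.2% of sites on chromosome 3, which is also the lower end of the interval. Of these 11 sites, 6 were in both K3R3 lists. The widest was chr3:34638626-34639275, with 650 bp in the looser and 600 bp in the stricter list, followed by one of 350 bp (chr3:34571476-34571825) and one of 325 bp (chr3:34586476-34586800). The other 3 in both lists were 150 to 175 bp wide, and in the stricter list they lay at chr3:34582401-34582550, chr3:34596776-34596875 and chr3:34616351-34616450. The stricter list alone held chr3:34560451-34560575 and chr3:34621251-34621350, and the looser list alone held 3 regions of 25 to 125 bp. The widest lay in a stretch of 37.45 kb without any wild-type region in either list (chr3:34608801-34646250), where 5 looser K3R3 regions of 1000 bp in all and 3 stricter ones of 800 bp lay wholly inside.

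The Nanog window, around the gene for a homeobox factor of the network, showed the largest difference between the histones, with wild-type regions over 6775 bp and K3R3 regions over 2500 bp. The wild-type list held 15 regions of 25 to 2175 bp and the K3R3 list 11 of 25 to 825 bp. In the stricter lists the counts were 15 and 8, and the covered lengths 5750 and 1900 bp. The largest single part of the gap was a wild-type region of 2175 bp at chr6:122612026-122614200, or 2125 bp in the stricter list. K3R3 had no region over it in either list, and its nearest one was 2950 bp away. Regions of at least 2000 bp without any K3R3 region were rare in the wild-type list as a whole, 26 of 1961 (1.33%), and on chromosome 6 there were 2 of 155 (1.29%), of which this was 1.

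The next sites along the Nanog window were occupied alike. A region of 850 bp in the wild type (chr6:122617126-122617975) met one of 825 bp for K3R3, and one of 575 bp (chr6:122620151-122620725) met one of 475 bp. Beyond these the wild type was the wider at most shared sites. At chr6:122645926-122646600 it had 1 region of 625 bp where K3R3 had 2 regions of 150 and 100 bp. At chr6:122648726-122649000 the widths were 275 and 100 bp, and at chr6:122643201-122643425 they were 225 and 25 bp, the latter absent from the stricter K3R3 list.

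Wild type alone was found at 8 of 18 Nanog sites (44.4%, Wilson interval 24.6 to 66.3), beside 30.3% of all sites on chromosome 6, which lies inside the interval. Beside the 2175 bp region these were a region of 725 bp (chr6:122636801-122637525), of which the stricter list kept 175 bp, and 6 sites of 150 to 200 bp. In order along the window these 6 were chr6:122603476-122603675, chr6:122624076-122624250, chr6:122632801-122633000, chr6:122639276-122639425, chr6:122640876-122641075 and chr6:122657451-122657600. The last was 8525 bp from any K3R3 region. K3R3 alone was found at 2 of the 18 Nanog sites (11.1%, Wilson interval 3.1 to 32.8), beside 8.23% of all sites on chromosome 6. They measured 250 bp (chr6:122600576-122600825) and 150 bp (chr6:122636151-122636300), and both were present in each K3R3 list.

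The Klf4 window, around the gene for a Krüppel-like zinc finger factor, had 15 regions in each looser list. It held the widest region at any of the 5 loci, a wild-type region of 2225 bp at chr4:55542501-55544725. K3R3 covered 80.9% of it with a region of 1775 bp (chr4:55542901-55544675) and a fragment of 25 bp. The pair at chr4:55480801-55481875 was identical at 1075 bp. Another at chr4:55493101-55494275 measured 1175 bp for the wild type and 1150 bp for K3R3, though the stricter K3R3 list kept only 550 bp of it.

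In the looser lists the wild-type excess at Klf4 lay in the last 4.525 kb of occupied sequence. From the widest site onward the wild type had 4 regions covering 3350 bp and K3R3 had 3 covering 2100 bp, a ratio of 1.60. In the 72.5 kb before it the histones covered 5200 and 5325 bp, a ratio of 0.977. In the stricter lists the wild type was ahead in both stretches, with 2800 and 2075 bp from the widest site onward and 4600 and 4350 bp before it. Past the widest site, a wild-type region of 700 bp (chr4:55545626-55546325) met 300 bp of K3R3, and wild-type regions of 125 bp (chr4:55545001-55545125) and 300 bp (chr4:55546726-55547025) had no K3R3 region over them. The first is missing from the stricter wild-type list and the second shrinks to 25 bp there. These stretches were set apart after their values were seen.

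Wild type alone and K3R3 alone were each found at 3 of 18 Klf4 sites (16.7%, Wilson interval 5.84 to 39.2), beside 11.8% and 25% of sites on chromosome 4. The third wild-type site without K3R3 was narrow, 175 bp at chr4:55486576-55486750. The 3 sites with K3R3 alone were 75 to 150 bp wide, and each was in a single K3R3 list, that at chr4:55506626-55506775 in the stricter one.

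At Esrrb, the gene for a nuclear receptor that acts with the core factors, the share of sites with both histones was the highest of the 5 loci (76.2%, Wilson interval 54.9 to 89.4). Of the 21 sites, 16 held both histones and 5 held K3R3 alone (23.8%, Wilson interval 10.6 to 45.1), beside 27.9% of sites on chromosome 12. Wild type alone was found at 0 of 21 (upper bound 15.5%), and the 11.4% of chromosome 12 lies inside this interval. Of the 16, 2 rest on K3R3 regions of 25 bp in the stricter list (chr12:87691301-87691325 and chr12:87779001-87779025), and by the looser lists alone 13 of 15 wild-type regions were shared. That is 86.7%, against 91.7% at Sox2. For K3R3 regions of the looser list the share was 73.7%, against 86.7% at Klf4, so Esrrb did not rank first by these lists. The widest wild-type region, 1900 bp at chr12:87761901-87763800, was covered to 82.9% by K3R3 regions of 1225 and 450 bp. It too was broken up in the stricter wild-type list, into pieces of 225, 625 and 450 bp. K3R3 was the wider at 10 of 13 shared clusters of looser regions (76.9%), against 2 wider in the wild type. On chromosome 12 K3R3 was wider in 56.1% of clusters, and in the genome in 49.5%. By ratio, the widths differed most at chr12:87742976-87744750, where K3R3 spanned 1775 bp and the wild type 975 bp, and at chr12:87751051-87751300, with 250 and 100 bp. At chr12:87729276-87730400 the widths were 1125 and 925 bp, and at chr12:87701676-87702700 they were 1025 and 900 bp.

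The 5 Esrrb sites with K3R3 alone measured 650 bp (chr12:87706251-87706900), 350 bp (chr12:87742176-87742525), 225 bp (chr12:87779651-87779875), 200 bp (chr12:87728651-87728850) and 150 bp (chr12:87723326-87723475). The last was in the stricter list only. All enriched sequence of both histones lay in the first part of the window, over 100.55 kb from the first site to the last. The 90.125 kb after chr12:87779875 held no region in any list.

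Over the 5 loci, sharing did not stand apart from the genome. A looser region counts as shared here where 1 bp or more of it lies in a looser region of the other histone. Of the 60 wild-type regions, 46 were shared (76.7%, Wilson interval 64.6 to 85.6), beside 81.6% in the genome. Of the 67 K3R3 regions, 49 were shared (73.1%, 61.5 to 82.3), beside 71.9%. These intervals allow for counting error alone, and neighbouring regions are not independent. At Nanog 8 of 15 wild-type regions were shared (53.3%, 30.1 to 75.2), beside 66.9% of wild-type regions on chromosome 6, and without Nanog the wild-type share was 84.4% (71.2 to 92.3).

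Counted as sites, 49 of 83 held both histones (59.0%, 48.3 to 69.0), close to 61.9% in the genome, and 43 were in all 4 lists. On chromosome 6 the share was 61.5%, and at Nanog 8 of 18 (44.4%, 24.6 to 66.3). Sites with both histones had a median width of 500 bp and sites with 1 histone 175 bp. A site with both joins regions of 2 libraries, so it tends to be wider by construction. The same medians were not taken over the genome. Wild type alone was found at 13 sites (15.7%, beside 13.5% in the genome), of which 8 were at Nanog. K3R3 alone was found at 21 (25.3%, beside 24.5%), of which 11 were at Sox2. Only 3 of the 13 and 2 of the 21 were at least 400 bp wide, a count that was not taken over the genome. Of the stricter regions, 14 of 62 in the wild type (22.6%, 14.0 to 34.4) and 17 of 64 in K3R3 (26.6%, 17.3 to 38.5) overlapped no looser region of the other library, beside 17.8% and 25.7% in the genome. Of the 14, 8 were at Nanog, and 2 at Esrrb did overlap a stricter K3R3 region.

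**Figure D3:**
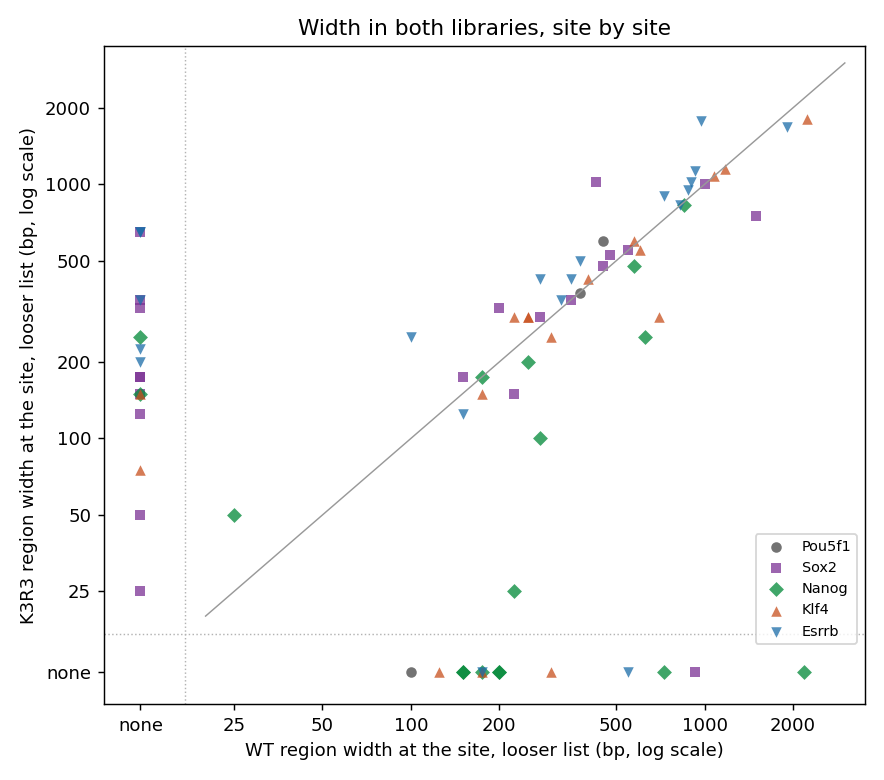
Width of the regions at each site in the looser lists, wild type on the horizontal and K3R3 on the vertical axis (bp, both log scales), 1 point per site and 1 symbol per locus. Points on the line have equal widths, and points beyond the dotted lines have no region in 1 library. Many sites lie near the line and some wide ones do not (Sox2 at 1500 and 750 bp, Esrrb at 975 and 1775 bp), 5 of 83 sites that were in neither looser list are left out, and the wild-type sites without K3R3 include the 2175 bp Nanog and the 925 bp Sox2 site.

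Where looser regions of both histones overlapped, their midpoints mostly lay close together. Only overlapping regions were paired, here and in the genome, so short distances are partly built in. They do not by themselves show that the histones sit at the same place. Looser regions that overlapped between the libraries formed 46 clusters, of which 43 had a single region of each. Within such pairs the distance between midpoints had a median of 12.5 bp, the same as in the genome. It was at most 100 bp in 40 pairs (93.0%), beside 91.1% in the genome. Both ends were identical in 4 of the 43 pairs, 1 each at Pou5f1, Sox2, Nanog and Klf4, beside 6333 of 77087 pairs in the genome. The largest shift, 725 bp, was at the Sox2 pair of 1500 and 750 bp described above.

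The direction of the width difference varied between the loci, on 2 to 13 clusters each. The wild type was wider in 16 of the 46 clusters (34.8%), beside 37.1% in the genome, and K3R3 in 23. At Nanog the wild type was wider in 6 of 8, and the log2 of wild-type over K3R3 width had a median of 0.30, beside 0.14 on chromosome 6, where it was wider in 66.6%. At Esrrb the median was -0.28, beside -0.08 on chromosome 12, where K3R3 was wider in 56.1% of clusters. The medians were -0.08 at Sox2 and 0.02 at Klf4, beside -0.06 on each of their chromosomes.

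The Nanog window differed from the others even against its chromosome, on which the wild type is ahead as a whole. The ratio of wild-type to K3R3 covered length was 2.71 at Nanog and 1.37 on chromosome 6, which held 7626 wild-type and 5936 K3R3 regions. Of 698 windows of 70 kb on chromosome 6 with at least 1000 bp covered in each library, 52 (7.45%) had a ratio of at least 2, and 12 (1.72%) reached that of Nanog. Their median was 1.27, with quartiles of 1.11 and 1.52. Without its widest wild-type region the Nanog ratio was 1.84. The windows, with a 95th percentile of 2.15, kept their widest regions, so these values are not on like terms. The wild-type excess along chromosome 6 moves with this result, and its part in it was not tested.

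At the other 4 loci the ratio stayed within the 5th and 95th percentiles of windows of the same length on the same chromosome. These windows again needed at least 1000 bp covered in each library. Pou5f1, with 925 and 975 bp, did not itself reach that minimum, so its place among them is not a like comparison. The ratio was 0.949 at Pou5f1 (median of windows 0.922), 0.853 at Sox2 (0.905), 1.15 at Klf4 (0.913) and 0.755 at Esrrb (0.873). At Klf4, 16.8% of the windows on chromosome 4 had a ratio at least as high. Together the 5 loci gave 1.04, and without Nanog 0.895, near the 0.934 of the genome.

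**Figure D4:**
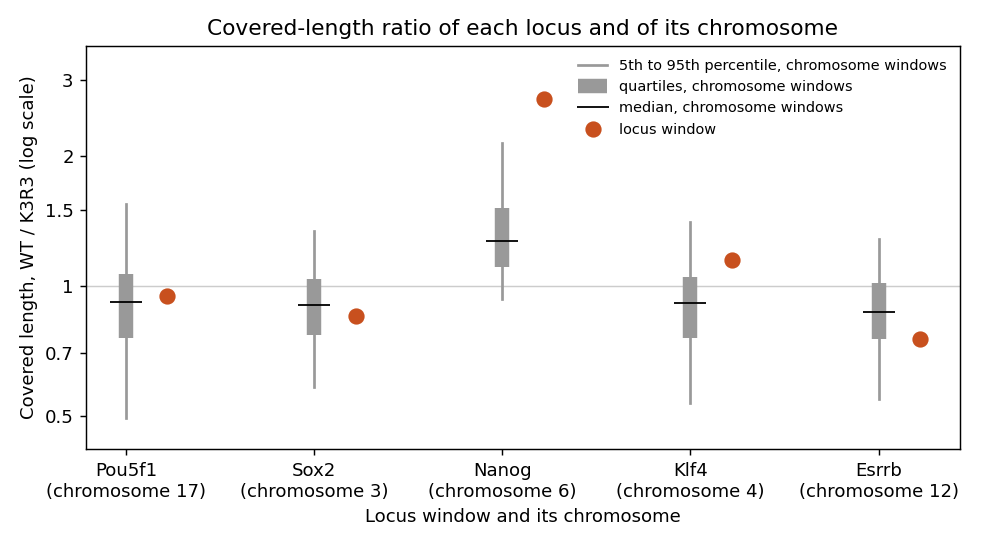
Ratio of wild-type to K3R3 covered length (log axis) in each locus window (orange points) and in windows of the same length on the same chromosome with at least 1000 bp covered in each library (black mark for the median, thick grey bar for the quartiles, thin grey line from the 5th to the 95th percentile). Nanog, at 2.71, lies above the line for chromosome 6, and the other 4 points lie within theirs. Pou5f1, with 925 and 975 bp covered, is itself below the 1000 bp minimum of the windows.

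All 5 windows were more densely covered than most of the genome. The wild type covered 10.7% of the Klf4, 9.68% of the Nanog, 5.02% of the Sox2, 4.67% of the Esrrb and 3.08% of the Pou5f1 window. Windows of the same lengths tiled along the genome had medians of 0.406%, 0.357%, 0.538%, 0.632% and 0.00%, and 3.72%, 4.56%, 11.4%, 12.2% and 18.9% of them were covered at least as much. These values are of the looser lists. The 5 windows were drawn around genes and enhancers and the tiled ones were not, so the comparison is not on like terms. In K3R3 the order was Klf4 at 9.28%, Esrrb at 6.18%, Sox2 at 5.88%, Nanog at 3.57% and Pou5f1 at 3.25%. In that order, 5.26%, 9.51%, 10.2%, 17.7% and 19.1% of the tiled windows were covered at least as much by K3R3. Nanog ranked behind Klf4 alone in the wild type, and ahead of Pou5f1 alone in K3R3. In the stricter K3R3 list it came last, at 2.71% beside 2.75% for Pou5f1.

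The stricter threshold mostly trimmed the regions, and a few appeared in 1 list only. Of the 60 looser wild-type regions, 3 had no stricter region over them, and of the 67 looser K3R3 regions, 9 had none. These 12 were 25 to 150 bp wide. Conversely 2 stricter wild-type regions and 6 stricter K3R3 regions had no looser one. The widest of these, a wild-type region of 750 bp at chr12:87776376-87777125 in the Esrrb window, overlapped K3R3 regions of 650 bp (looser) and 625 bp (stricter), so this site would count as K3R3 alone in the looser lists. The other was a 200 bp region at Nanog (chr6:122640876-122641075) without a K3R3 region in either list. Such counts were not taken over the genome, so they are not shown to be particular to these loci.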

How the data were processed

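The files hold the start and end of each enriched region in bp (build mm9) and no score, as deposited by the authors. The 4 lists come from 2 libraries and carry the thresholds 1e-09 or 1e-12 in their names, per the file headers. Bowtie 0.12.3 and bedtools were used, per the submitters' processing notes. The region caller, its filters and the control used are not given in the sources used for this text. Coordinates are multiples of 25 bp and neighbouring regions lie at least 225 bp apart, which limits how finely widths can be read. Read depth is unknown, so list lengths were not adjusted for it.

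The members and lists were chosen with earlier results of these data known. Whole regions were counted where they overlapped a window by at least 1 bp, and covered length was clipped to the window. Positions are 1-based. The rule for naming took, in each locus, the widest region of each library, regions of at least 1000 bp and library-specific regions (stricter regions over no looser region of the other histone). Others named, and the width classes of the background, were chosen after their values were seen. Equal windows were tiled from the start of each chromosome to its last region. Alternatives were the stricter lists, joining within 1000 bp, a minimum width of 200 bp, a reciprocal overlap of 50%, both lists of the other histone, regions wholly inside, windows widened by 10 kb, and leaving out Nanog. Leaving out the widest site of each locus was added after seeing the data. The 12 further pluripotency genes planned were not analysed here, since the annotation at hand is of another build. Intervals were handled in Python 3.11.15 (pandas 2.3.3, numpy 2.4.6), checked with bedtools 2.31.1 and tested on simulated data. Wilson intervals came from scipy 1.17.1 and plots from matplotlib 3.10.9.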

Additional observations from a re-analysis of the deposited data

How the results depend on the processing

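None of the alternatives moved the count of regions over all 5 loci by over 1.5 times. With a minimum width of 200 bp the K3R3 count fell from 20 to 12 at Sox2 and from 11 to 4 at Nanog, and windows widened by 10 kb took Pou5f1 from 3 to 10 wild-type and from 2 to 8 K3R3 regions. Sox2, Nanog, Klf4 and Esrrb kept the direction of their covered-length ratio under each one run for it. Nanog ranged from 1.84 (without its widest site) to 3.49 (regions of at least 200 bp). Pou5f1, with 3 and 2 regions, turned from 0.949 to 1.12 in the stricter lists, 1.26 in windows widened by 10 kb and 1.27 without its widest site. The 5 loci together turned from 1.04 to 0.895 without Nanog and to 0.919 without the widest site of each locus. With a reciprocal overlap of 50%, 58.2% of K3R3 regions were shared, against 73.1%. The cause of these shifts was not tested, apart from what each alternative leaves out. No paired analysis was possible because there was a single library of each histone.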
